A study of Mus musculus with 12 samples.

Results

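Opioid signalling in the trigeminal ganglion was followed through 5 genes, 4 encoding opioid receptors and 1 encoding an opioid peptide precursor. They were chosen by name and matched through their Ensembl identifiers among the 55416 genes of each count file. The receptor genes are Oprm1 (mu receptor, ENSMUSG00000000766, chromosome 10), Oprd1 (delta receptor, ENSMUSG00000050511, chromosome 4), Oprk1 (kappa receptor, ENSMUSG00000025905, chromosome 1) and Oprl1 (nociceptin receptor, ENSMUSG00000027584, chromosome 2). The precursor gene is Penk (proenkephalin, ENSMUSG00000045573, chromosome 4). All 5 passed the filter on low counts that left 16637 genes to test.

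The ganglion contains the somata of facial sensory neurons, together with satellite glia, Schwann cells, vessels and connective tissue. The study deleted Prdm12, a transcriptional regulator needed for nociceptors to form in the embryo, in adult C57Bl6 mice and sequenced polyadenylated RNA from whole ganglia 1 month after injection. The 6 knockout animals (iKO, 3 female and 3 male) had the genotype Rosa26Cre ERT2; Fl/Fl and were injected with tamoxifen, the drug that activates CreERT2. Of the 6 control animals (2 female and 4 male), controls 1 to 4 also received tamoxifen. Their genotypes were Rosa26Cre ERT2; Fl/+ (control 1), +/+; Fl/+ (controls 2 and 3) and Rosa26Cre ERT2; +/+ (control 4). Controls 5 and 6 carried Rosa26Cre ERT2; Fl/Fl, as the iKO animals did, but were given corn oil. Rosa26 is active in most cell types, so the deletion was not directed to neurons. Animals numbered 5 and 6 were all male in both groups.

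Prdm12 itself, the check of the labels, ran from 13.2 to 19.2 CPM (counts scaled to a fixed library total) in the iKO libraries and from 57.0 to 133 CPM in the controls, a difference of -2.64 on the log2 scale (edgeR adjusted p = 2.7e-05). Libraries held 13207526 to 24178970 counts. Across 14 sensory neuron markers the summed level ran from 10500 to 12630 CPM in iKO and from 10060 to 12520 CPM in control libraries. Several libraries stood apart in markers of other tissues. Control 6 had the highest summed levels of satellite glia, Schwann cell, fibroblast, oligodendrocyte and lymphocyte markers, iKO 5 of skeletal muscle markers and iKO 3 of pituitary markers.

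Opioid receptors belong to the rhodopsin-like family of G protein-coupled receptors. They couple to inhibitory G proteins, which lower adenylyl cyclase activity, open inwardly rectifying potassium channels and close presynaptic calcium channels. In primary sensory neurons this reduces firing and transmitter release, and it is a basis of opioid pain relief. Penk gives rise to Met- and Leu-enkephalin, which act mainly at delta and mu receptors.

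The relatedness of the 4 receptors bears on how their reads can be told apart, so the stretch around the conserved Asp-Arg-Tyr codons, where G proteins engage receptors of this family, is shown for each. The 69 bases of coding strand are from the GRCm38 genome with GENCODE M21 transcripts, and capitals mark the Asp-Arg-Tyr codons.
Oprm1, chr10:6829060-6829128, plus strand: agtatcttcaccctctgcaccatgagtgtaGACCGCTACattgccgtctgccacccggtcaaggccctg
Oprd1, chr4:132117225-132117293, minus strand: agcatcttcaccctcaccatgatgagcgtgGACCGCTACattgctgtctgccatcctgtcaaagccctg
Oprk1, chr1:5598765-5598833, plus strand: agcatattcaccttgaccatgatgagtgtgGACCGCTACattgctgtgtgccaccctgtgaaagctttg
Oprl1, chr2:181718552-181718620, plus strand: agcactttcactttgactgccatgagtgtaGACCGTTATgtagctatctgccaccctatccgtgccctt

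Of these 69 bases, 38 were the same in all 4 genes. Oprd1 and Oprk1 shared 60 of them, whereas Oprl1 shared 47 with each of the others and was alone in spelling the marked codons differently. Over the whole coding sequences, identity between receptor pairs ran from 63.7% to 70.2%. The longest exact run shared by any pair was 25 bases, between Oprk1 and Oprl1. In every receptor the window lies inside a coding exon.

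Penk carries its peptides as repeats, shown here because each repeat encodes the residues of an enkephalin, the product the gene is named for. The 7 copies, each with 6 bases on either side, lie in the last exon on the minus strand of chromosome 4 (GRCm38), and capitals mark the enkephalin codons.
Penk copy 1, chr4:4134328-4134354: aagaagTACGGAGGCTTCATGaaacgg
Penk copy 2, chr4:4134307-4134333: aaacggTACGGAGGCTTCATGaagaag
Penk copy 3, chr4:4134220-4134246: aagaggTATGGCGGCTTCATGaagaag
Penk copy 4, chr4:4134067-4134093: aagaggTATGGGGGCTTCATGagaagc
Penk copy 5, chr4:4133995-4134021: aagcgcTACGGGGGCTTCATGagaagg
Penk copy 6, chr4:4133935-4133961: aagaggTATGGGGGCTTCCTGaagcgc
Penk copy 7, chr4:4133842-4133868: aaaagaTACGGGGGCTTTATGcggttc

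Of these copies, 6 encode the residues of Met-enkephalin and copy 6 encodes those of Leu-enkephalin. Pairs of codons for basic residues, where the precursor is cut, flank 5 of the copies on both sides. Copies 4 and 7 have no such pair after the marked codons.

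The first question was how much of each transcript the ganglion holds. Levels of different genes were compared as FPKM, the CPM divided by the exon length in kilobases from GENCODE M21. Oprl1 had the highest level in 12 of 12 libraries, at 11.7 ± 0.881 FPKM (mean ± SD, n = 12), and no other member's range reached its range of 10.4 to 13.8 FPKM. Oprk1 had the lowest level in 12 of 12 libraries, at 0.667 ± 0.122 FPKM.

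Between them lay Oprd1 at 2.58 ± 0.427 FPKM, Penk at 2.30 ± 0.984 FPKM and Oprm1 at 2.07 ± 0.428 FPKM (SD, n = 12 each). These neighbours did not separate. Their ranges were 1.98 to 3.50, 0.745 to 4.08 and 1.51 to 3.01 FPKM, and their order changed between libraries. The range of Penk also overlapped that of Oprk1, which ran from 0.441 to 0.939 FPKM.

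The order depended on the length given to Oprm1, whose annotated exons cover 8037 bases while its longest coding transcript has 2420. With the length of the longest coding transcript, an alternative added after seeing the data, Oprm1 measured 6.87 FPKM and ranked second in 12 of 12 libraries. Oprl1 remained first in all 12, and Penk lay below Oprk1 in 2 libraries. Which Oprm1 transcripts the ganglion makes was not analysed here.

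The library kit did not mark strand, so reads from overlapping genes on opposite strands cannot be told apart. In GRCm38, Ipcef1 shares 96 of the 8037 exon bases of Oprm1 (1.19%) and measured 2.04 CPM. Gm10945 overlaps the Oprm1 locus without sharing an exon base. A830012C17Rik shares 233 of the 1634 exon bases of Penk (14.3%) and measured 0.0283 CPM. No overlapping gene was listed for Oprd1, Oprk1 or Oprl1.

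The second question was whether these genes differed between iKO and control animals. Controls 5 and 6 also differed from the iKO animals in the injected agent. Against a background of 0.379% of all tested genes called at an edgeR adjusted p under 0.05 (63 of 16637), 0 of the 5 members were called when 6 iKO libraries were compared with 6 controls. DESeq2 and limma-voom called none of them either. At an unadjusted p under 0.05 there was 1 of 5, Oprm1, where 10.9% of all genes passed. In each member the groups overlapped, whereas in 1.2% of all genes they did not. The log2 fold changes of Oprm1, Oprd1 and Penk were below 0 and those of Oprk1 and Oprl1 above 0.

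Oprm1, the receptor for morphine and the main target of opioid analgesics, had a lowest, median and highest level of 12.1, 14.5 and 20.8 CPM in iKO and of 15.0, 17.4 and 24.2 CPM in control libraries. Of the iKO libraries 4 lay below the lowest control, while iKO 1 lay above 5 of the 6 controls. The log2 fold change was -0.29 ± 0.13 (SE), with a 95% interval from -0.58 to -0.01, an unadjusted p of 0.0427 and an edgeR adjusted p of 0.44. The group means were 15.2 ± 3.20 and 18.1 ± 3.26 CPM (SD, n = 6 each).

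Oprd1, the delta receptor bound by enkephalins, measured 7.97, 9.12 and 11.0 CPM (lowest, median, highest) in iKO and 9.11, 11.5 and 14.1 CPM in control libraries. The highest level was in control 3, and 4 of the 6 controls lay above every iKO library. Its log2 fold change was -0.23 ± 0.117 (SE), with a 95% interval from -0.48 to 0.02 and an edgeR adjusted p of 0.516.

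Oprk1, the receptor for dynorphins, measured 5.13, 6.36 and 8.59 CPM (lowest, median, highest) in iKO and 4.03, 5.63 and 6.73 CPM in control libraries. The extremes were iKO 6 at the top and control 5 at the bottom, and the other 10 libraries interleaved between 5.13 and 6.75 CPM. Its log2 fold change was 0.21 ± 0.145 (SE), with a 95% interval from -0.11 to 0.52 and an edgeR adjusted p of 0.65.

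Oprl1, the receptor for nociceptin, measured 43.0, 43.9 and 51.6 CPM (lowest, median, highest) in iKO and 39.2, 41.9 and 45.9 CPM in control libraries. Here 4 controls lay below every iKO library, and controls 1 and 4 lay above 5 of the 6 iKO libraries. The log2 fold change was 0.10 ± 0.06 (SE), with a 95% interval from -0.03 to 0.23 and an edgeR adjusted p of 0.596.

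Penk, the enkephalin precursor, measured 1.22, 3.33 and 4.06 CPM (lowest, median, highest) in iKO and 2.24, 4.87 and 6.66 CPM in control libraries. All 6 iKO libraries lay below the control median, but controls 1 and 4 fell inside the iKO range. Its log2 fold change was -0.65 ± 0.318 (SE), with a 95% interval from -1.34 to 0.04, an unadjusted p of 0.0623 and an edgeR adjusted p of 0.497. In whole ganglia, fewer cells of a type and less RNA per cell cannot be told apart. A p that misses the threshold does not show that a gene was unaffected, and the intervals give the range of changes that these libraries leave possible.

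**Figure D1:**
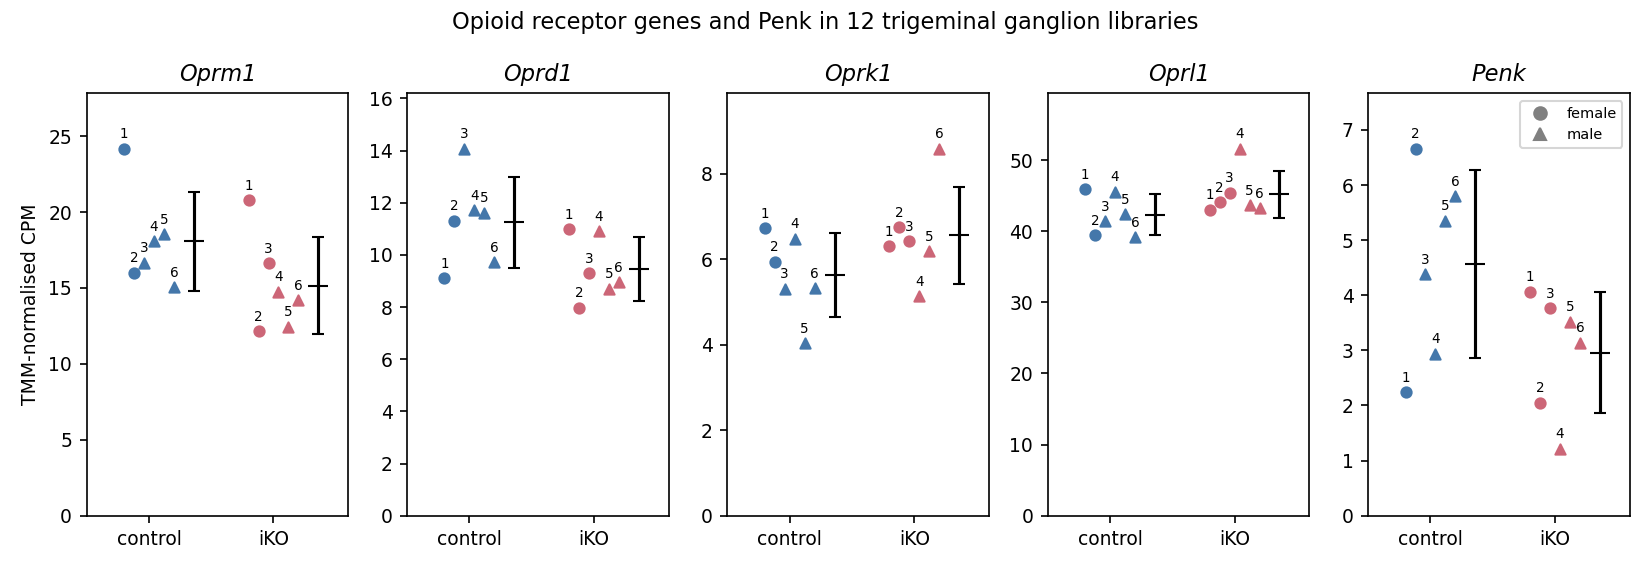
Levels of the 4 opioid receptor genes and Penk in TMM-normalised CPM (y axis, from 0) in control (blue) and iKO (red) libraries, numbered by replicate, with circles for females and triangles for males and bars for the mean ± SD of 6 libraries. The groups overlap in every panel, from Oprl1 with all libraries between 39.2 and 51.6 CPM to Penk with libraries between 1.22 and 6.66 CPM.

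The members differed in how steady they were from animal to animal. Penk had the widest spread, with a coefficient of variation of 42.7% over 12 libraries and a 5.47-fold distance between iKO 4 and control 2. Counting error alone, at 19 to 129 counts per library, would give 11.9%. Oprl1 had the narrowest, at 7.57% beside 3.55% from counting at 581 to 1079 counts. Oprm1 (20.7%), Oprk1 (18.4%) and Oprd1 (16.6%) lay between. These counting values cover counting error only, since the reads carried no molecular identifiers, whereas the 95% intervals of the fold changes, from edgeR, include the spread between animals.

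Connective tissue markers are given beside Penk, whose level was lower in most iKO libraries without being called. Of 13 fibroblast and meningeal markers, 12 had log2 fold changes below 0 and 1, Slc22a6, was called lower (-1.10, edgeR adjusted p = 0.0476), with a list median of -0.59 beside 0.00 over all genes. Among all genes tested, 49.5% lay below 0 and 0.204% were called lower. Their summed level ran from 1423 to 2671 CPM in iKO and from 2053 to 3667 CPM in control libraries. The genes with the highest mean CPM of this list were Ptgds at 1019, Dcn at 692 and Col1a2 at 303 CPM, each lowest in iKO 6. Oligodendrocyte and astrocyte markers ran from 142 to 837 CPM and from 136 to 2431 CPM, with 8 of 8 below 0 and none called, and were led by Mobp, Gfap and Aqp4 at 351, 221 and 77.0 CPM, each highest in control 6. No marker of either list was at 0 in all libraries. These were not the only lists that lay mostly below 0. Lymphocyte markers had 7 of 7 tested genes below 0, macrophage markers 7 of 8 and brain neuron markers 6 of 8. Schwann cell markers had 2 of 9 below 0 and skeletal muscle markers 0 of 8. The part of any of these lists in the level of Penk was not tested. A fit without 3 libraries was added after seeing the data. It left out control 6 and iKO 6, the highest and lowest in fibroblast and meningeal markers, and iKO 3, the highest in pituitary markers, while other libraries at an extreme of some list, such as control 4 and iKO 5, stayed in. In it none of the members was called, and Oprk1 had a log2 fold change of 0.08 in place of 0.21. Over the 9 alternatives that include this fit, the log2 fold change of Penk ran from -0.68 to -0.62, beside -0.65 in the main fit. With single libraries left out it ran from -0.87 to -0.44.

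Replicates 1 to 4 compare genotypes under tamoxifen, since every animal there received it. With 4 libraries a group, the log2 fold changes were -0.26 for Oprm1, -0.16 for Oprd1, -0.05 for Oprk1, 0.12 for Oprl1 and -0.78 for Penk. None of the 5 was called (background 0.114%), with edgeR adjusted p from 0.653 to 0.975, and 0 of 5 had an unadjusted p under 0.05 (background 7.93%). In all 5 genes the groups overlapped, where 3.89% of all genes did not. Single libraries moved these values. For example, without control 1 Oprm1 measured -0.08 and Penk -1.23, without control 2 Oprm1 measured -0.40, Oprd1 -0.09 and Penk -0.40, and without iKO 4 Oprl1 measured 0.05 and Penk -0.44. The 95% interval of Penk over the 8 libraries ran from -1.60 to 0.04, and iKO 4, at 1.22 CPM, held its lowest level.

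Replicates 5 and 6 compare tamoxifen with corn oil in males of 1 genotype, with 2 libraries a group. The drug and the deletion it induces go together in this set and cannot be told apart. Oprk1 measured 6.19 and 8.59 CPM in iKO and 4.03 and 5.33 CPM in control libraries. Both iKO values were above both controls, with a log2 fold change of 0.65, a 95% interval from 0.19 to 1.11, an unadjusted p of 0.00995 and an edgeR adjusted p of 0.577. Penk measured 3.14 and 3.52 CPM in iKO against 5.36 and 5.80 CPM in controls, a log2 fold change of -0.74 with an adjusted p of 0.755 in edgeR. For Oprm1, Oprd1 and Oprl1 the log2 fold changes were -0.33, -0.27 and 0.09. The groups did not overlap in any of the 5 genes, but with 2 libraries against 2 that held for 40.7% of all genes. None of the 5 was called, against a background of 0.00601%, and 1 of 5, Oprk1, had an unadjusted p under 0.05, against 7.87%. Prdm12 itself missed the threshold in this contrast, at -2.49 on the log2 scale (edgeR adjusted p = 0.0509). The absence of calls among the members therefore says little here.

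The effect on Oprk1 was 0.70 larger on the log2 scale in replicates 5 and 6 than in replicates 1 to 4, with a 95% interval from 0.12 to 1.27 and an unadjusted p of 0.0218, but an edgeR adjusted p of 1. For the other 4 members the difference lay between -0.11 and 0.03. In this test 0 of 16637 genes were called by edgeR, 568 (3.41%) had an unadjusted p under 0.05, and DESeq2 called 5. Between the replicate sets the controls differ in genotype and agent, whereas the iKO animals share both. The mix of sexes differs between the sets in both groups, and these differences cannot be told apart.

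**Figure D2:**
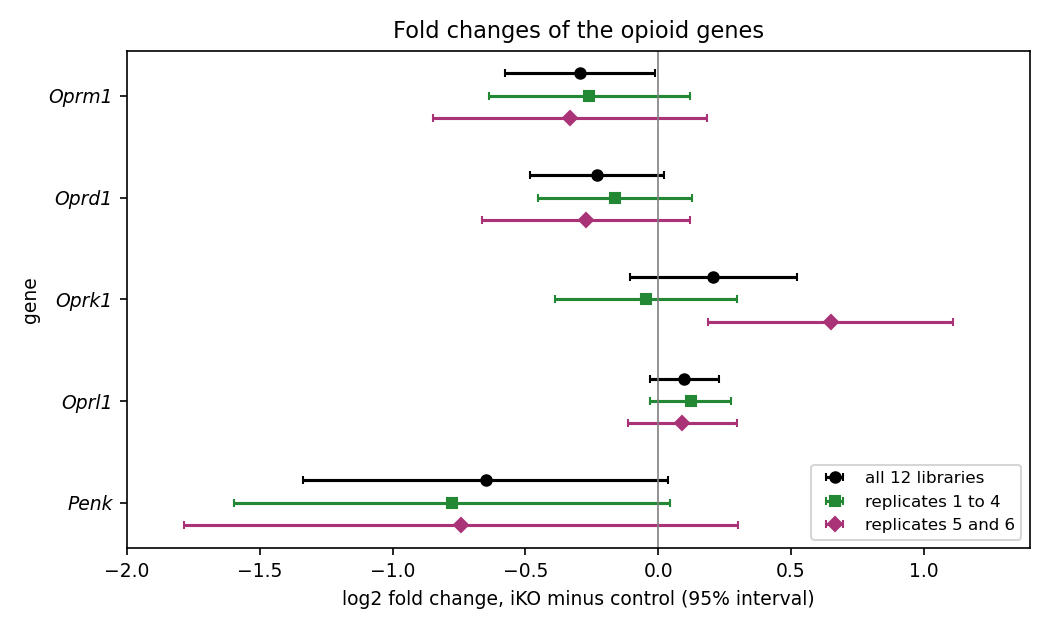
Log2 fold changes of the 5 genes (x axis, iKO minus control) with 95% intervals from edgeR, over all 12 libraries (black circles), replicates 1 to 4 (green squares) and replicates 5 and 6 (purple diamonds). Intervals that leave out 0 are those of Oprm1 over all libraries, from -0.58 to -0.01, and of Oprk1 in replicates 5 and 6, from 0.19 to 1.11, and neither gene was called.

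The sexes overlapped in every member. Male against female log2 fold changes were -0.25 for Oprm1, 0.10 for Oprd1, -0.10 for Oprk1, 0.02 for Oprl1 and -0.15 for Penk, with 7 male and 5 female libraries. Replicates 5 and 6 were all male, so sex and replicate set overlap. Over 7 alternative settings Penk ran from -0.70 to -0.10, Oprd1 from 0.07 to 0.27 and Oprl1 from 0.02 to 0.11. Oprm1 ran from -0.25 to -0.20 and Oprk1 from -0.13 to -0.09. None was called, with edgeR adjusted p from 0.531 to 0.897 and a background of 0.108%, and 0 of 5 had an unadjusted p under 0.05 (background 10.2%). The 5 female libraries lay between 5.94 and 6.75 CPM for Oprk1, inside the male range of 4.03 to 8.59 CPM.

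Members were then compared with each other across animals, as log2(CPM + 1) with the group mean removed. Of the 10 pairs, 1 passed a two-sided permutation test with Benjamini-Hochberg adjustment over the pairs. Oprl1 and Penk moved in opposite directions, with Pearson's r = -0.872 (n = 12, p = 0.0019, adjusted p = 0.019). Spearman's rho was -0.79, with a permutation p of 0.00679 and an adjusted p of 0.0679. Without control 1 and iKO 4, the libraries farthest from the median of Oprl1, r was -0.688, and in the 8 libraries of replicates 1 to 4 it was -0.879. In iKO 4, the library with the highest Oprl1 level, Penk was at its lowest. All libraries share the scaling by total counts, and Penk was the least precisely counted of the 5.

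**Figure D3:**
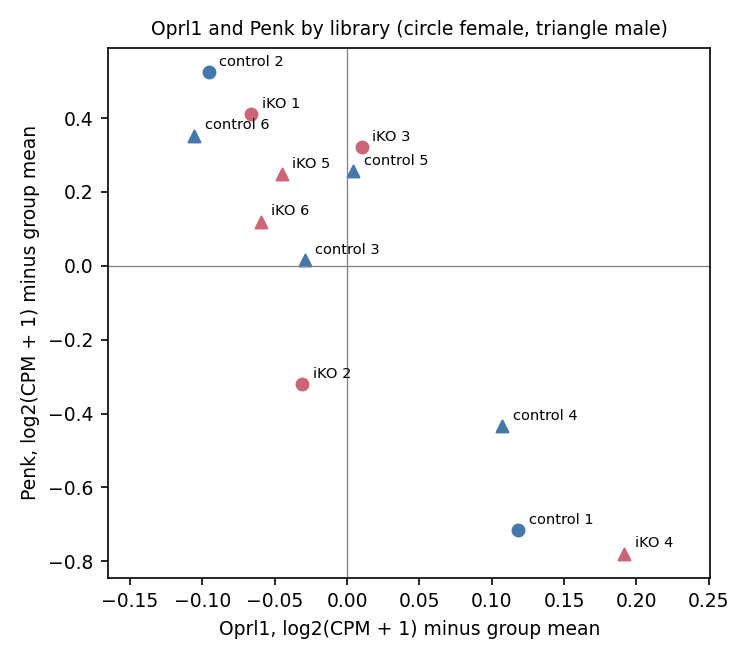
Penk (y axis) against Oprl1 (x axis), each as log2(CPM + 1) minus the mean of its group, in 6 control (blue) and 6 iKO (red) libraries, circles for females and triangles for males. Control 1, control 4 and iKO 4 lie at the lower right, apart from the rest, and r over all 12 libraries was -0.872.

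The other 9 pairs had r between -0.418 and 0.348 and adjusted p of 0.776 in each. Against the mean level of 16 marker lists, 0 of 80 pairs of a member and a list passed. By Pearson's r the smallest p was that of Oprl1 with the peptidergic nociceptor markers (r = 0.797, rho = 0.713, n = 12, permutation p = 0.00771, adjusted p = 0.385), and r was 0.559 without control 6 and iKO 4. By Spearman's rho the smallest p was that of Oprm1 with the lymphocyte markers (rho = -0.734, r = -0.552, n = 12, permutation p = 0.00322, adjusted p = 0.243), and r was -0.693 without control 5 and control 6. Penk had r = -0.57 with the peptidergic markers (permutation p = 0.0725, adjusted p = 0.429). With the fibroblast and meningeal markers Penk had r = 0.482 and rho = 0.65 (permutation p = 0.133 and 0.0333, adjusted p = 0.514 and 0.243). Its r with the satellite glia markers was similar, at 0.493 (permutation p = 0.127, adjusted p = 0.514).

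Searching the 15485 genes that averaged 1 CPM or more for patterns most like each member's over the 12 libraries gave the following, as a description only. Closest to Oprm1 were Rora (r = 0.937), Gucy1a2 (0.903) and Dgki (0.901). For Oprd1 they were Hs6st1 (r = 0.936), Epb41l1 (0.928) and Usp5 (0.925). Oprk1 was followed most closely by Ikzf2 (r = 0.885), A630089N07Rik (0.862) and Zbtb6 (0.851). The genes nearest to Oprl1 were Gm8098 (r = 0.905), Ckmt1 (0.905) and Mrpl37 (0.877), and those nearest to Penk were Mpzl2 (0.897), Gli3 (0.87) and 2310039H08Rik (0.861). High values of r are reached by some genes in any search of this size, and libraries share their depth and mix of cells.

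The members were set beside the other precursors that feed these receptors. Pdyn, the precursor of the dynorphins that act at kappa receptors, had 1 to 32 counts per library. Pnoc, the precursor of nociceptin, had 1 to 12 counts. Neither passed the filter on low counts, so no test was made of them. Pdyn was highest in iKO 3, at 1.35 CPM, and next highest in control 3, at 0.803 CPM.

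Pomc, the precursor of beta-endorphin and a main product of the pituitary, ran from 1.93 to 387 CPM. The 5 female libraries measured 12.6 CPM in iKO 1, 44.5 in control 2, 106 in control 1, 142 in iKO 2 and 387 in iKO 3. The 7 male libraries lay between 1.93 and 10.1 CPM, below every female library, where 0.475% of all genes did not overlap between the sexes. Pomc was lower in males, at -4.84 ± 0.754 (SE) on the log2 scale and an edgeR adjusted p of 0.0295, where 0.0781% of all genes were called lower and 0.0301% higher in males. Between iKO and control its log2 fold change was 0.74, with an edgeR adjusted p of 0.772.

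The sex call on Pomc was not stable. It was lost with the replicate set as a covariate (-3.95, edgeR adjusted p = 0.297) and under limma-voom (-4.58, adjusted p = 0.587). It was also lost without control 1, 4, 5 or 6 or without iKO 2, 4, 5 or 6, each left out alone, at edgeR adjusted p from 0.0642 to 0.131 and log2 fold changes from -5.09 to -4.59. The 10 pituitary markers summed to between 9.31 CPM in iKO 6 and 2432 CPM in iKO 3, which also held the most Pomc, and Lhb was at 0 in all 12 libraries. Gh and Prl, growth hormone and prolactin, had male against female log2 fold changes of -3.71 and -6.41 (edgeR adjusted p = 0.443 and 0.103). Tbx19, a factor of the pituitary cells that make Pomc, had 4 to 37 counts in each female and 1 to 3 counts in each male library, with the most in iKO 3, and was too low to test. Control 5, a male, had Gh at 124 CPM with Pomc at 1.93 CPM, the lowest of all. The part of pituitary RNA in the level of Pomc was not tested.

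**Figure D4:**
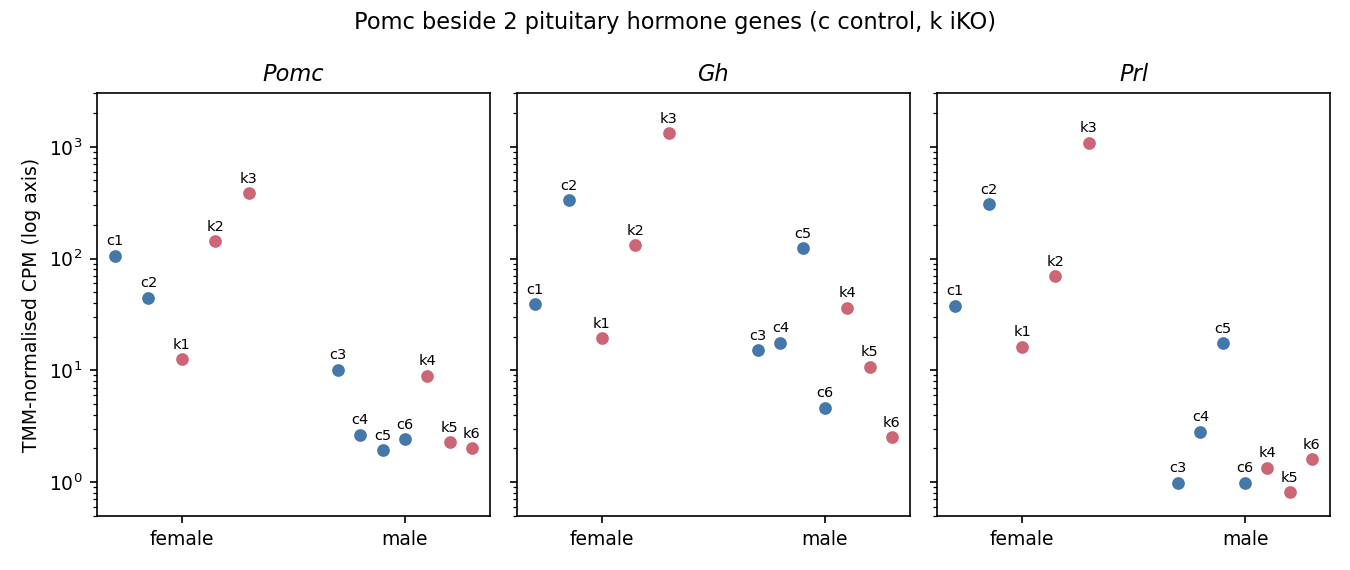
Pomc beside the pituitary hormone genes Gh and Prl in TMM-normalised CPM (y axis, log scale) in female and male libraries, blue for control (c) and red for iKO (k), with replicate numbers. For Pomc the 5 female libraries lie between 12.6 and 387 CPM and the 7 male libraries between 1.93 and 10.1 CPM, and iKO 3 is highest for all 3 genes.

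The machinery around the receptors was described with 63 further genes of the pathway in 10 lists, of which 60 were tested. Of these, 1 was higher and 2 were lower in iKO at an edgeR adjusted p under 0.05, where 0.174% of all genes were higher and 0.204% lower. The lists were chosen with earlier results of these data known, so this count is a description and not a test of the pathway. Log2 fold changes were below 0 in 39 of 60 (65%), with a median of -0.05, beside 49.5% and a median of 0.00 over all genes tested. In replicates 1 to 4, 31 of 60 (51.7%) lay below 0, beside 51.6% of all genes, and in replicates 5 and 6, 43 of 60 (71.7%) did, beside 51.5%. In replicates 1 to 4 none of the 60 was called, where 0.0541% of all genes were called higher and 0.0601% lower, and in replicates 5 and 6 none was called either.

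Adcy5, an adenylyl cyclase that inhibitory G proteins hold down, measured 36.3 to 54.5 CPM in iKO and 67.2 to 77.7 CPM in control libraries. It fell by 0.60 ± 0.0847 (SE) on the log2 scale, with an edgeR adjusted p of 0.00823, and the call held without each library in turn (adjusted p from 0.00145 to 0.0388). Of the 7 adenylyl cyclases it was the 1 called, and the cyclase with the highest CPM, Adcy1, had a log2 fold change of 0.06 (adjusted p = 0.773 in edgeR).

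Gnao1, the alpha subunit of Go, measured 427 to 523 CPM in iKO and 531 to 614 CPM in control libraries. It fell by 0.29 ± 0.0522 (SE) on the log2 scale, with an edgeR adjusted p of 0.0397. That call was lost without any of control 1 to 5 or iKO 1, 2, 3, 5 or 6, left out alone, with adjusted p from 0.0542 to 0.132 and log2 fold changes from -0.31 to -0.26. Among the 9 inhibitory G protein genes it was the 1 called, and Gnb1, with the highest CPM, had a log2 fold change of -0.02 (adjusted p = 0.936 in edgeR).

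Rgs9bp, the anchor protein of Rgs9 known best from photoreceptors, measured 2.06 to 2.96 CPM in iKO and 0.911 to 1.79 CPM in control libraries. It rose by 1.16 ± 0.187 (SE) on the log2 scale, with an edgeR adjusted p of 0.0191. The call was lost without control 1, 2 or 5 or iKO 1, at adjusted p from 0.0545 to 0.0829 and log2 fold changes from 1.07 to 1.14. Its partner Rgs9, which speeds the return of G proteins to their resting state, had a log2 fold change of 0.20 (adjusted p = 0.58 in edgeR). Of the 10 RGS genes Rgs9bp was the 1 called, and Rgs4, with the highest CPM, had -0.13 (edgeR adjusted p = 0.499).

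Without control 6, iKO 3 and iKO 6 together, the calls on Gnao1 and Rgs9bp were also lost (edgeR adjusted p = 0.117 and 0.12), at log2 fold changes of -0.31 and 1.18. In replicates 1 to 4 the log2 fold changes were -0.56 for Adcy5, -0.25 for Gnao1 and 1.30 for Rgs9bp, and in replicates 5 and 6 they were -0.68, -0.33 and 0.99. Over all 12 libraries the iKO and control groups of all 3 genes did not overlap, where 1.2% of all genes did not. They therefore could not overlap in either set.

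**Figure D5:**
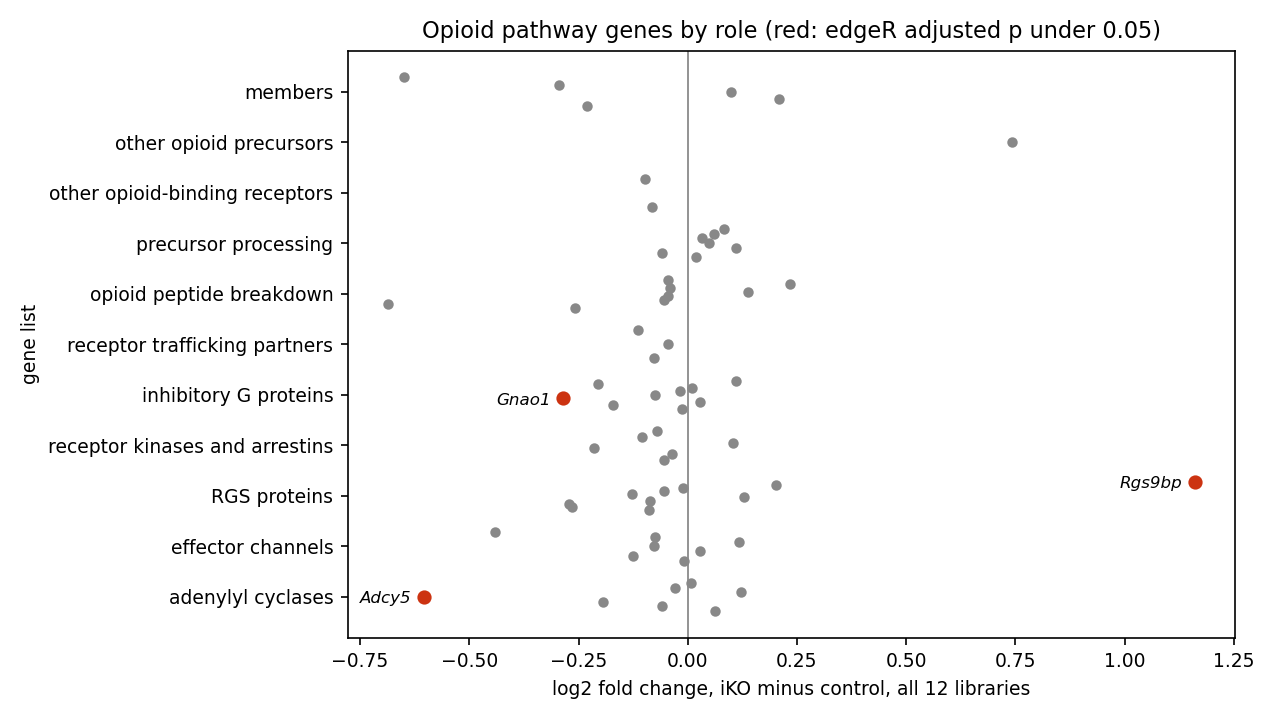
Log2 fold changes (x axis, iKO minus control, all 12 libraries) of the tested genes of the opioid pathway, 1 point per gene, grouped by role, with genes past an edgeR adjusted p of 0.05 in red. Adcy5 at -0.60, Gnao1 at -0.29 and Rgs9bp at 1.16 are the called genes, and the 5 members, in the top line, are all grey.

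In the remaining 7 lists no gene was called. Among the enzymes and chaperones that cut and finish peptide precursors, Pam, which amidates peptide ends, had a log2 fold change of 0.11 (adjusted p = 0.27 in edgeR). Its lowest iKO level was 185.4 CPM and its highest control level 184.1 CPM. Groups without overlap were found in 1.2% of all genes. Cpe, the carboxypeptidase that trims the cut ends, with the highest CPM of the 7, had 0.02 (adjusted p = 0.904 in edgeR). Of the 8 peptidases that break opioid peptides down, Anpep, aminopeptidase N, had the smallest p with a log2 fold change of -0.69 (adjusted p = 0.27 in edgeR), and Lnpep, with the highest CPM, had -0.04 (edgeR adjusted p = 0.876). The kinase gene Grk2, whose product phosphorylates active receptors, had -0.22 (edgeR adjusted p = 0.15), and the arrestin gene Arrb1 had -0.06 (edgeR adjusted p = 0.78).

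Of the effector channels, the potassium channel subunit gene Kcnj9 had a log2 fold change of -0.44 (adjusted p = 0.402 in edgeR) and the calcium channel subunit gene Cacna2d1 -0.08 (edgeR adjusted p = 0.747). Among 3 genes tied to receptor trafficking, Wls had -0.12 (edgeR adjusted p = 0.621) and Gpm6a -0.08 (edgeR adjusted p = 0.706). Ogfr, the opioid growth factor receptor, which is unrelated in structure to the 4 receptors, had -0.10 (edgeR adjusted p = 0.629).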

How the data were processed

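The authors deposited unnormalised gene-level read counts for 6 iKO and 6 control ganglion samples. Per the submitters' processing notes, the build was GRCm39 and the tools were featureCounts 2.0.1, STAR 2.7.8a and bcl2fastq 2.20.0.422, and per the labels' protocols the TruSeq libraries were not stranded. No source used here gives the annotation release or the counting options. Symbols, exon lengths, overlaps and sequences came from GENCODE M21 on GRCm38, an older build, so its coordinates serve only the sequences printed. Of 55416 identifiers 52083 had a symbol, those without held 0.274% of counts, and 1 of 223 list entries was unmatched.

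Counts were tested with edgeR 4.0.16 (R 4.3.3, limma 3.58.1): filterByExpr by group, TMM scaling, the quasi-likelihood test with sex as covariate (group, for the sexes) and Benjamini-Hochberg adjustment over 16637 genes at 0.05. Replicate sets were contrasts in 1 fit over all 12 libraries. The tests were tried on simulated counts with known changes. Levels are TMM-normalised CPM, mean ± SD. Correlations used 100000 permutations within groups and a pseudocount of 1 CPM. The alternatives were other scalings and filters, DESeq2 1.42.0, limma-voom, other covariates and libraries left out. Files of the same group differed beyond counting error in every pair. P-values measure the spread between these samples.

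The members and gene lists were chosen with earlier results of these data known. The genes named are the members, pathway genes past the threshold, in each list the gene with the smallest p and the gene with the highest CPM, the other precursors, the 3 genes most like each member, genes overlapping a member, and the 3 leading genes of marker lists set beside a member. The leading genes of the peptidergic list are not reported here. Slc22a6, Rgs9, Tbx19 and the pituitary hormone genes were named after their values were seen.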

Additional observations from a re-analysis of the deposited data

Results flagged for a closer look

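Oprl1 in iKO 4 stood apart from the other iKO libraries, at 51.6 CPM with the next at 45.4 CPM, a gap that took 0.722 of the range of the group. Pdyn in iKO 3, at 1.35 CPM with the next iKO library at 0.455 CPM, had a gap of 0.733 of the range. Pomc in iKO 3, at 387 CPM with the next at 142 CPM, had a gap of 0.636 of the range. Dixon's critical value for 6 samples is 0.625. There were 16 groups of 6 libraries examined, and chance gives about 1 such gap in 20 groups.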

How the results depend on the processing

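No member was called under any alternative run, and over all 12 libraries each kept its sign, but the size of some moved: Oprk1 (0.21) was 0.072 without iKO 6, 0.14 without control 5 and 0.077 without control 6, iKO 3 and iKO 6, and Oprl1 (0.10) was 0.047 without iKO 4. Genes called over all libraries (63) numbered 138 without a filter on low counts, 338 with DESeq2, 34 with the replicate block and 23 without control 6, iKO 3 and iKO 6. In replicates 1 to 4 (19) there were 621 without the filter, 139 with DESeq2, 2 with the replicate block and 12 with only those libraries. In replicates 5 and 6 (1) there were 1014 without the filter, 69 with DESeq2, 0 with the replicate block or only those libraries, and 2 with RLE or upper quartile scaling, a stricter filter or no covariate. For the difference between the sets (0) there were 578 without the filter and 5 with DESeq2, and for sex (18) 33, 50 and, with the replicate set as covariate, 9. Oprk1 in replicates 1 to 4 turned from -0.05 to 0.0093 without a covariate and to 0.0086 with the replicate block. The set difference of Penk turned from 0.03 to -0.11 with limma-voom, -0.20 without a covariate and -0.18 with the block. The longest coding transcript as length moved Oprm1 to 6.87, Oprk1 to 1.31 and Oprl1 to 14.6 FPKM, since the same CPM was divided by a shorter length. The cause of the other changes was not tested. The labels do not say what a shared replicate number means, and the samples were treated as unpaired. Correlations of deviations between same-numbered samples ran from -0.40 to 0.35, which does not settle whether they were paired. The replicate block ended the calls on Gnao1 (-0.30, edgeR adjusted p = 0.105) and Rgs9bp (1.18, adjusted p = 0.0754) at folds like those without it.

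With each library left out, the counts ran from 23 to 88 over all libraries, 2 to 18 in replicates 1 to 4, 1 to 26 in replicates 5 and 6 (26 without iKO 6), 0 to 15 for the difference (15 without iKO 6) and 11 to 15 for sex. In replicates 1 to 4 the log2 fold change ran from -0.40 to -0.082 for Oprm1, -0.25 to -0.088 for Oprd1, -0.12 to 0.036 for Oprk1, 0.051 to 0.20 for Oprl1 and -1.23 to -0.40 for Penk, and in replicates 5 and 6 from -0.48 to -0.19, -0.40 to -0.15, 0.40 to 0.86, 0.031 to 0.14 and -0.84 to -0.66. The set difference ran from -0.25 to 0.071 for Oprm1, -0.24 to 0.012 for Oprd1, -0.11 to 0.041 for Oprl1 and -0.35 to 0.49 for Penk. The sex difference ran from -0.022 to 0.072 for Oprl1 and -0.40 to 0.090 for Penk. Depth limits Penk most, at 19 to 129 counts per library, and Pdyn and Pnoc were too low to test.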
